A study of Homo sapiens with 2 samples.

Results

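The 9 genes described here encode the hypoxia-inducible factor (HIF) subunits, the VHL protein and the oxygen-dependent hydroxylases that act on HIF. They were taken by gene symbol from the deposited expression tables, and all 9 were found among 23375 gene rows. All 9 were also in the set of 16894 genes on which ratios were computed, those with 10 or more reads in the libraries together, although HIF3A entered only through its reads in the knockout library. The study sequenced total RNA of a SETD2 knockout line, made with a zinc finger nuclease in 786-O cells, and of 786-O cells with wild-type SETD2, with 1 library of each. A zinc finger nuclease is an engineered enzyme that cuts the genome at a selected sequence. 786-O is an established human clear cell renal carcinoma line known for having lost functional VHL and for expressing the EPAS1 protein but no functional HIF1A protein, and the knockout line shares this origin. Both lines grew in the same serum-supplemented medium without other treatment. Whether the knockout line is 1 clone and at which oxygen level the cells grew are not given in the labels.

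In normal oxygen, the prolyl hydroxylases EGLN1, EGLN2 and EGLN3 modify prolines of the HIF alpha subunits, and VHL, the substrate receptor of a ubiquitin ligase, then binds the hydroxylated subunit and marks it for degradation. HIF1AN hydroxylates an asparagine in the same subunits and so blocks binding of a coactivator. Alpha subunits that escape pair with ARNT and bind DNA at the core letters ACGTG or GCGTG. In clear cell renal carcinoma, loss of VHL leaves the alpha subunits stable in normal oxygen. Control by hydroxylation and VHL acts on protein, whereas the values below are transcript levels.

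The promoter sequences of the alpha subunit genes EPAS1 and HIF1A and of the hydroxylase genes EGLN1 and EGLN3 are shown because the alpha subunits had the largest differences among the abundant members, and because EGLN1 and EGLN3 are known as genes that HIF itself induces. Each is the 250 bases before an annotated start, read 5′ to 3′ along the gene from RefSeq promoters of GRCh38.p14, a build other than the hg19 of the expression tables. Capitals mark ACGTG or GCGTG on either strand. They are reference sequences and not those of 786-O cells.
EPAS1, chr2:46297157-46297406, plus strand: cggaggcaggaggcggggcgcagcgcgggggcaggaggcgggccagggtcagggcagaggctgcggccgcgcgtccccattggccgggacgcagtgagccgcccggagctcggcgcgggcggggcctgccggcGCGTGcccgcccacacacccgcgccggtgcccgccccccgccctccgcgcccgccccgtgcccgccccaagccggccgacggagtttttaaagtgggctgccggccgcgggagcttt
HIF1A, chr14:61695263-61695512, plus strand: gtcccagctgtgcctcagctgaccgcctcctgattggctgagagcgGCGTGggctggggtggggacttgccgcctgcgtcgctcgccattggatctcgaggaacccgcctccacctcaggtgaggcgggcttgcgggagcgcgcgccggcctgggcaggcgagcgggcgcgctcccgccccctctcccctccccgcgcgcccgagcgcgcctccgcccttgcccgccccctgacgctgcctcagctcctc
EGLN1, chr1:231422288-231422537, minus strand: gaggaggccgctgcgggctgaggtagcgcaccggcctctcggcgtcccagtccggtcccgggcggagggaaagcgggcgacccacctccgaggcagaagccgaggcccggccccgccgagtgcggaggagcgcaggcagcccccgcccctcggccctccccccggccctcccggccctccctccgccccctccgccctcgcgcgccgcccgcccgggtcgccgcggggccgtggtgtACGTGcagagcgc
EGLN3, chr14:33951075-33951324, minus strand: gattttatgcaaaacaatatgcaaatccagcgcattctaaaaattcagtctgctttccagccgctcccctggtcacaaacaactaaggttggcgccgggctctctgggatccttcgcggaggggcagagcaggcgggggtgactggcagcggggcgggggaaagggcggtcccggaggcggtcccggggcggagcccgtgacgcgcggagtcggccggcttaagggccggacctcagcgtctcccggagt

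The EPAS1 window held 1 GCGTG that begins 117 bases before the start, and the first HIF1A window held 1 GCGTG that begins 204 bases before it. The EGLN1 window held 1 ACGTG that begins 13 bases before the start. No match was found in the EGLN3 window, which says only that these letters are absent from it. RefSeq windows matched 8 of the 9 genes, with 12 windows in all because HIF1A, HIF3A and EGLN2 have several starts. Of these, 5 held a match, beside 43.2% of all 35116 windows of the same length. In EGLN2, ACGTG on both strands overlapped in 1 palindrome, CACGTG, a word held by 6.34% of all windows. The first HIF3A window held 3 GCGTG. The expression data do not measure binding at these letters.

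Genes held 50670012 fragments in the knockout library and 62304084 in the wild-type library. Each difference compares these 2 libraries, not the conditions, and no p-value is given, since there is no replicate error with 1 library per line. Intervals are exact 95% intervals unless stated otherwise and cover counting error only. The targeted gene SETD2 was lower in the knockout library, at 2.39 RPKM against 6.79 RPKM in the wild-type library, and its ratio was 0.334 (interval 0.314 to 0.354). RPKM, reads scaled by transcript length and by library total, is the authors' level per length. Of 7 renal epithelial markers, 7 were measured, and their levels summed to 473 RPKM in the knockout and 503 RPKM in the wild-type library. The highest was KRT8, a keratin gene, at 211 RPKM in the knockout and 239 RPKM in the wild-type library. The lowest was PAX2, at 1.77 RPKM in the knockout and 2.08 RPKM in the wild-type library. PAX8, a nephron lineage transcription factor, was at 30.9 RPKM in the knockout and 43.7 RPKM in the wild-type library. Markers of leukocytes, endothelium and fibroblasts summed to 0.0378 RPKM in the knockout and 0.108 RPKM in the wild-type library over 10 genes, of which 5 were at 0 in the knockout and 2 in the wild-type library. Of the renal markers 1 was called higher by the rule given below, the cadherin CDH6 (ratio 1.99). Of 4 tested markers of other cells 1 was called lower, the collagen COL1A2, with 0 knockout and 14 wild-type fragments. COL1A2 was tested only through its wild-type reads and was near 0 there too, at 0.0302 RPKM.

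Ratios of knockout to wild type were computed from fragments after TMM scaling (trimmed mean of M values), and a gene was called when its whole interval lay beyond 1.5-fold. Of the 9 genes, 0 were called higher and 1, EPAS1, was called lower. Of all 16894 tested genes, 10.4% were called higher and 9.17% lower by this rule, so the members' counts were near the background. Beyond 2-fold, 0 members were called in either direction, beside 5.75% of all genes higher and 3.37% lower. Of the 8 members other than HIF3A, the ratio had an interval wholly below 1 in 5 (EPAS1, HIF1A, ARNT, EGLN3 and EGLN1) and wholly above 1 in 1 (VHL), while the intervals of HIF1AN and EGLN2 held 1. HIF3A is left out of this count, since it was tested only through its knockout reads. At this depth, 35.2% of all tested genes had an interval wholly below 1 and 34.9% wholly above it. The median log2 ratio of the 9 genes was -0.16, and -0.26 without HIF3A, against 0.02 for all tested genes.

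**Figure D1:**
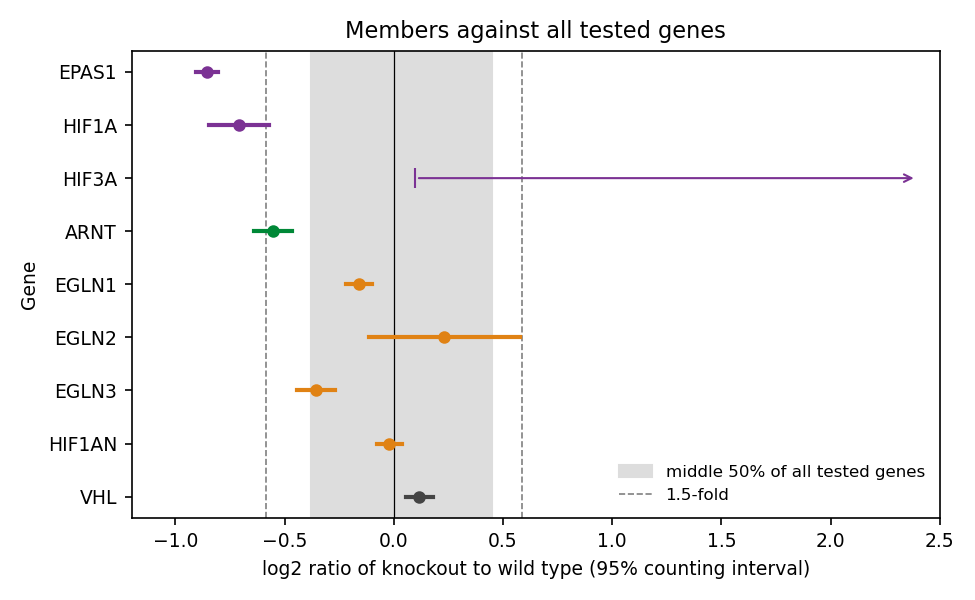
Log2 ratio of knockout to wild type (horizontal axis) of the 9 genes, with 1 library per line. Points are ratios and bars exact 95% counting intervals, the HIF3A arrow starts at the lower bound of its interval because it had no wild-type fragment, the grey band holds the middle 50% of all tested genes and dashed lines mark 1.5-fold. The EPAS1 interval lies wholly beyond the lower line, and that of HIF1A reaches across it.

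EPAS1, the alpha subunit that drives the HIF response in 786-O cells, was counted in 4419 knockout and 9324 wild-type fragments (hg19 chromosome 2, 46524541 to 46613842). Its level was 12.3 RPKM in the knockout library, against 21.1 RPKM in the wild-type library. The ratio was 0.553 (interval 0.533 to 0.573), 1.81-fold lower in the knockout library, and 9.73% of tested genes had a lower ratio. In bulk RNA, fewer expressing cells and less RNA per cell cannot be told apart. EPAS1 was the most abundant of the 9 transcripts per length in the wild-type library, at percentile 85.3 of all genes with a fragment, and at percentile 77.2 in the knockout library.

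HIF1A, the alpha subunit of the acute hypoxic response in most cells, was the less abundant of the pair. It was counted in 649 knockout and 1236 wild-type fragments (chromosome 14, 62162119 to 62214977), which gave 2.12 RPKM in the knockout and 3.28 RPKM in the wild-type library. The ratio was 0.612 with an interval of 0.556 to 0.674, which crossed the 1.5-fold limit, so HIF1A was not called. Per length, EPAS1 was at 5.79 times the HIF1A level in the knockout and at 6.42 times in the wild-type library. This quotient does not depend on how libraries are scaled, and the knockout quotient over the wild-type one was 0.903 (normal-approximation 95% counting interval 0.815 to 0.999). EPAS1 held 87.2% of the fragments of this pair in the knockout library (exact binomial interval 86.2% to 88.1%) and 88.3% in the wild-type library (87.7% to 88.9%). Both transcripts had ratios below 1, and the interval of their quotient ended just short of 1. The transcript level of HIF1A says nothing of its protein, which is known to be absent in functional form in this line.

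HIF3A, an alpha subunit with splice forms that can oppose the others, was near 0 in both libraries. It had 5 fragments in the knockout library (0.0112 RPKM) and 0 in the wild-type library (chromosome 19, 46800303 to 46846690). The exact interval of its ratio starts at 1.07, and at 0.852 relative to the 50 nearest genes, so no fold is given. HIF3A made up 0.0986% of alpha subunit fragments in the knockout library (interval 0.0320% to 0.230%). In the wild-type library it had 0 of 10560, for which the exact interval reaches 0.0349%.

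ARNT, the constitutive partner of the alpha subunits, was counted in 1724 knockout and 2949 wild-type fragments (chromosome 1, 150782181 to 150849244). Its level was 5.07 RPKM in the knockout and 7.04 RPKM in the wild-type library, with a ratio of 0.682 (interval 0.642 to 0.724) that was not called. The summed level of the 3 alpha subunits was 2.85 times that of ARNT in the knockout and 3.46 times in the wild-type library. For EPAS1 alone this quotient was 2.42 in the knockout and 2.99 in the wild-type library, a ratio of 0.811 (normal-approximation interval 0.756 to 0.869), so EPAS1 differed by more than ARNT beyond counting error. The same ratio for HIF1A over ARNT was 0.898, and its interval of 0.803 to 1.005 held 1.

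The prolyl hydroxylases differed less than the alpha subunits. EGLN1, the main prolyl hydroxylase in most cells, was counted in 3799 knockout and 4946 wild-type fragments (chromosome 1, 231499497 to 231560790), or 7.69 RPKM in the knockout and 8.13 RPKM in the wild-type library. Its ratio was 0.896 with an interval of 0.859 to 0.935. EGLN3, the hydroxylase known for the strongest induction by HIF, was counted in 1784 knockout and 2661 wild-type fragments (chromosome 14, 34393421 to 34420284), or 9.42 RPKM in the knockout and 11.4 RPKM in the wild-type library. The EGLN3 ratio was 0.782 with an interval of 0.736 to 0.831. Neither was called.

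EGLN2, a hydroxylase not known as a HIF target, had the lowest level of the family, with 143 knockout and 142 wild-type fragments (chromosome 19, 41305048 to 41314346), or 0.869 RPKM in the knockout and 0.700 RPKM in the wild-type library. Its ratio of 1.17 had an interval of 0.925 to 1.49, so a difference was not detectable at this depth. The whole EGLN2 row, 9299 bases, lies inside the row of the readthrough gene RAB4B-EGLN2, which had 2 knockout fragments and 1 wild-type fragment. RAB4B, the other gene that this readthrough joins, had 0 fragments in both libraries, as did a second readthrough row over it, MIA-RAB4B. Of 220 genes joined by a readthrough row, 34 were at 0 in both libraries (15.5%), against 18.1% of other rows. Reads that fall in both rows may have been left uncounted. This was not tested, and the shares of genes at 0 cannot show it. The level of EGLN2 relative to the other hydroxylases is thus uncertain. Of the members, HIF1A also overlaps another row, sharing 1221 bases with its antisense transcript HIF1A-AS2, which had 0 fragments in both libraries. Reads in these shared bases may also have been left uncounted, since use of strand is not given. This was not tested either, so the level of HIF1A relative to EPAS1 and the other members is uncertain too.

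Within the hydroxylases, EGLN1 held the most fragments, while EGLN3, whose transcript is shorter, had the highest level per length. EGLN3 was at 1.22 times the EGLN1 level in the knockout and at 1.40 times in the wild-type library. The quotient had a ratio of 0.873 (normal-approximation interval 0.811 to 0.939), so the ratio of EGLN3 lay below that of EGLN1 beyond counting error. EGLN1 and EGLN3 were both nearer to 1 than EPAS1. EGLN1 relative to EPAS1 had a knockout to wild type ratio of 1.62 (1.53 to 1.71), and EGLN3 relative to EPAS1 one of 1.41 (1.32 to 1.52).

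HIF1AN, the asparaginyl hydroxylase, was counted in 4476 knockout and 5296 wild-type fragments (chromosome 10, 102295641 to 102313681), or 9.31 RPKM in the knockout and 8.94 RPKM in the wild-type library. Its ratio was 0.986 with an interval of 0.947 to 1.03, and its direction turned with the scaling, with ratios of 0.979 to 1.04 over the alternatives. VHL was counted in 3998 knockout and 4298 wild-type fragments (chromosome 3, 10183319 to 10195354), or 12.6 RPKM in the knockout and 11.0 RPKM in the wild-type library. The VHL ratio was 1.08 (interval 1.04 to 1.13), and it was not called. The transcript of VHL was thus counted in both libraries, although the line lacks the functional protein, and a transcript count does not show whether the reading frame is intact. Per length, VHL was at 1.02 times the EPAS1 level in the knockout library and at 0.522 times in the wild-type library, and this quotient was 1.96-fold higher in the knockout library (normal-approximation interval 1.86 to 2.08).

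**Figure D2:**
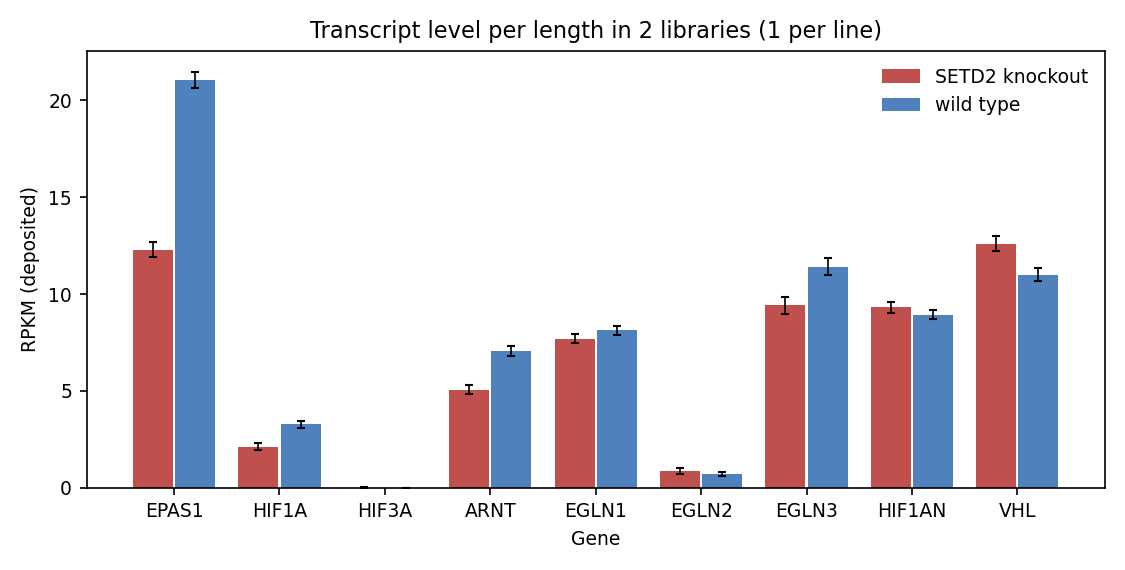
Deposited RPKM (vertical axis, from 0) of the 9 genes in the SETD2 knockout library (red, left bar) and the wild-type library (blue, right bar), with 1 library per line and exact 95% counting intervals as error bars. EPAS1 stands at 12.3 in the knockout and 21.1 in the wild-type library, the widest gap. HIF1A, ARNT and EGLN3 are also lower in the knockout library and VHL is higher, with intervals that do not overlap. The intervals of EGLN1, EGLN2, HIF1AN and HIF3A overlap between the libraries.

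In order of level per length, the knockout library had VHL first at 12.6 RPKM and EPAS1 next at 12.3 RPKM, with overlapping counting intervals. EGLN3 and HIF1AN followed at 9.42 and 9.31 RPKM and also overlapped, and then EGLN1, ARNT, HIF1A, EGLN2 and HIF3A were each separated from the gene above. In the wild-type library EPAS1 stood alone at the top, EGLN3 and VHL overlapped at 11.4 and 11.0 RPKM, and HIF1AN, EGLN1, ARNT, HIF1A, EGLN2 and HIF3A followed in the same order as in the knockout library, each separated. The change in order was thus among the upper genes, where EPAS1 shared the first place with VHL in the knockout library. The place of EGLN2 stays uncertain, since reads shared with its readthrough row may have been left uncounted, which counting intervals do not cover. The same limit applies to HIF1A, which shares bases with the row of HIF1A-AS2.

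Each gene was also set beside the 50 nearest tested genes on its chromosome, since a ratio can be shared by a whole region. Around EPAS1, whose log2 ratio was -0.86, the median of the neighbours was 0.00221, and 2 of the 50 had a lower value than EPAS1. Around HIF1A, with a log2 ratio of -0.71, the median was 0.11, and again 2 of the 50 were lower. Around EGLN3, also on chromosome 14 and with a log2 ratio of -0.35, the median was 0.03, and 6 neighbours were lower. These 3 genes thus lay below the middle of their surroundings. The 50 neighbours were spread widely, over 14.9 Mb for EPAS1, 7.86 Mb for HIF1A and 17.4 Mb for EGLN3.

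ARNT also lay below the median of its neighbours, but that median was itself lower than around these genes. Its neighbours, spread over 1.86 Mb, had a median log2 ratio of -0.26, 9 of them were called lower and 2 higher, and 15 had a lower value than ARNT (-0.55). Relative to this median the ARNT ratio was 0.817, so part of its difference was shared with the genes around it, and why was not tested. EGLN1, farther along chromosome 1, lay 0.32 below the median of its neighbours on the log2 scale, which was 0.17, so its ratio relative to them was 0.798. EGLN2 lay at the median of its region (0.23 against 0.24, with 25 of 50 neighbours lower). The neighbours of HIF1AN and VHL had medians of -0.06 and 0.00874, with 27 and 28 of 50 below the member. IRAK2, a kinase gene next to VHL, had a ratio of 0.667 (interval 0.629 to 0.708). VHL lies on the chromosome that also carries SETD2, whose own neighbours had a median of -0.09. The 2 libraries do not measure DNA copy number, which cannot be told apart from transcript control here.

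**Figure D3:**
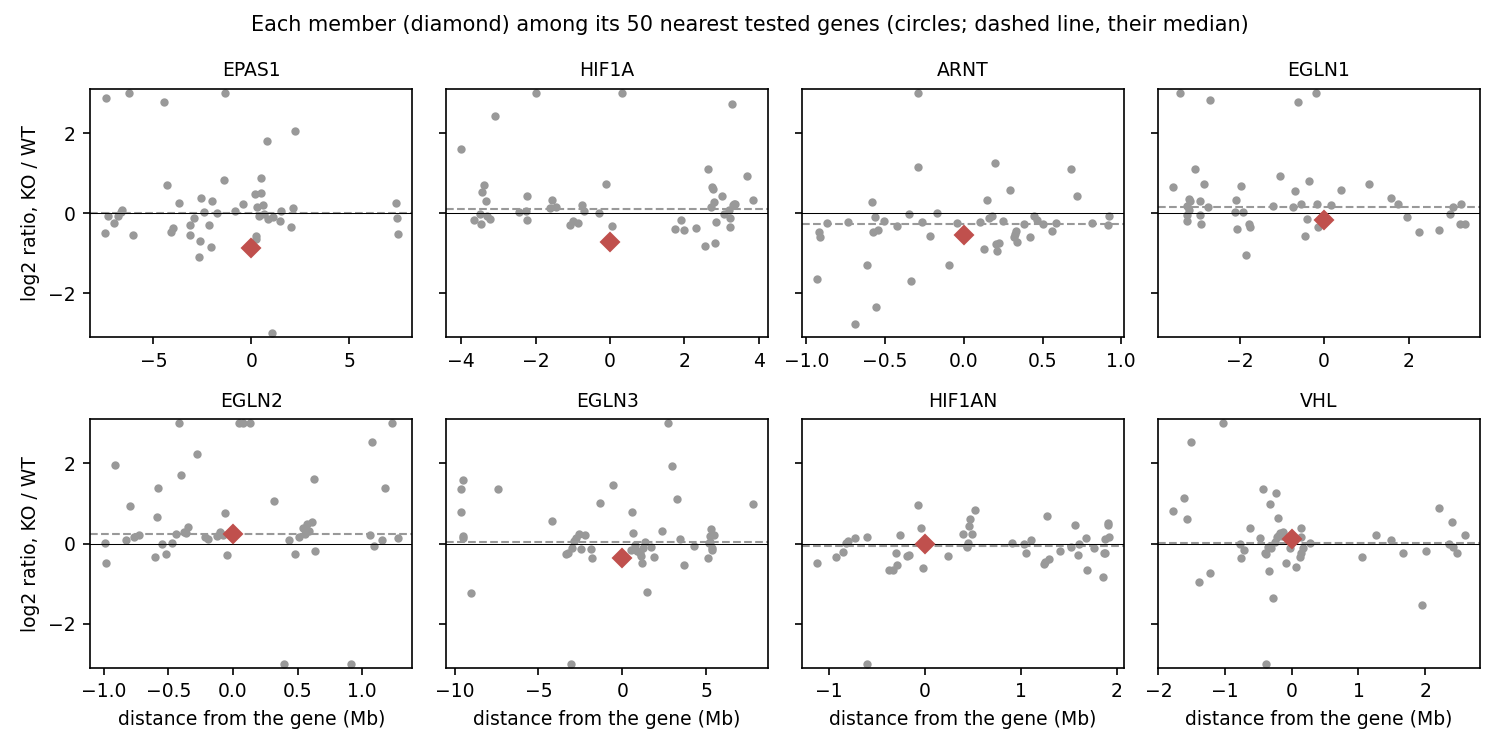
Log2 ratio of knockout to wild type (vertical axis) of 8 members (red diamonds) and of the 50 nearest tested genes of each (grey circles), by distance in Mb from the member (horizontal axis). Dashed lines are the neighbours' medians, and values beyond 3 or -3 are drawn at those limits. EPAS1 and HIF1A sit below all but 2 of their neighbours, while the dashed line of ARNT itself lies at -0.26.

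The wider pathway was described by lists of genes with known roles. The calls in each list stand beside 10.4% of all tested genes called higher and 9.17% called lower. Among 8 partners and regulators of the VHL ubiquitin ligase, 0 were called in either direction, with a median log2 ratio of -0.06. The adaptor subunits elongin B (TCEB2) and elongin C (TCEB1) had the most fragments, although the ubiquitin-like modifier NEDD8 lay above TCEB1 per length, with 8049 knockout and 6269 wild-type fragments of TCEB2, 49.8% more after scaling (interval of the ratio 1.45 to 1.55), and a ratio of 0.928 for TCEB1. CUL2, the cullin scaffold of the ligase, had a ratio of 1.02. Among 10 enzymes of the metabolites that feed or inhibit the hydroxylases, with P4HTM, a related membrane-bound hydroxylase, 0 were called and the median was -0.07. SDHA, a succinate dehydrogenase subunit, had a ratio of 1.28 and IDH1, a cytosolic isocitrate dehydrogenase that makes the cosubstrate 2-oxoglutarate, a ratio of 0.930.

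Other bHLH-PAS proteins belong to the protein family of the HIF subunits. Of 11 tested, 3 were called higher and 2 lower, beside 10.4% of all tested genes higher and 9.17% lower. The median log2 ratio was 0.57 but the mean 0.19, with values from -1.81 to 1.47. Whether the list differed from other genes was not tested. The 2 lower genes can both act as partners of other family members. So can ARNTL, which had a ratio of 1.53 (interval 1.37 to 1.71) and was not called. ARNT2, a close relative of ARNT, had 1044 knockout and 3000 wild-type fragments, or 2.29 RPKM in the knockout and 5.34 RPKM in the wild-type library, and a ratio of 0.406 (interval 0.378 to 0.436), while its 50 neighbours had a median log2 ratio of -0.10. ARNTL2, a partner of the circadian factor CLOCK, had 3673 knockout and 15013 wild-type fragments and a ratio of 0.285 (0.275 to 0.296), in a region of chromosome 12 with a median of -0.78. The 3 higher genes were at 0.541 to 2.27 RPKM in the knockout and 0.210 to 1.24 RPKM in the wild-type library. AHRR, a repressor of the aryl hydrocarbon receptor, had 213 knockout and 102 wild-type fragments and a ratio of 2.44 (interval 1.91 to 3.12). SIM1, a developmental factor, had 287 knockout and 147 wild-type fragments and a ratio of 2.28 (1.86 to 2.80). NPAS2, a relative of CLOCK, had 632 knockout and 425 wild-type fragments and a ratio of 1.73 (1.53 to 1.97). The NPAS2 level in the knockout library, 2.27 RPKM, was near that of ARNT2. ARNT, which was not called, and ARNT2 were thus both at lower levels in the knockout library.

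Among 7 coactivators and modulators 0 were called, with a median of 0.000351. The acetyltransferases CREBBP and EP300, which HIF recruits, had ratios of 1.34 and 1.10. Of 12 regulators of HIF or hydroxylase stability 0 were called higher and 1 lower, beside 10.4% and 9.17% of all tested genes, with a median of 0.09. The lower gene was SENP1, a SUMO protease that acts on HIF1A protein, with 1246 knockout and 2679 wild-type fragments and a ratio of 0.542 (interval 0.507 to 0.580), and its neighbours had a median log2 ratio of -0.40.

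Targets were split by the alpha subunit they are known to respond to more, although 786-O cells are known to lack functional HIF1A protein. Of all tested genes, 10.4% were called higher and 9.17% lower. Of 7 tested genes that respond more to HIF1A, 0 were called higher and 1 lower, with a median log2 ratio of -0.05. The lower gene was PDK1, a kinase that inhibits pyruvate dehydrogenase, with 664 knockout and 1462 wild-type fragments and a ratio of 0.530 (interval 0.483 to 0.581). CA9, a carbonic anhydrase and HIF1A target, had 0 knockout fragments and 1 wild-type fragment. Of 8 tested genes that respond more to EPAS1, 1 was called higher and 1 lower, with a median of -0.27. IGFBP3, which binds insulin-like growth factors, had 24660 knockout and 69548 wild-type fragments and a ratio of 0.414 (0.408 to 0.420), whereas PLIN2, a lipid droplet coat protein, had 9086 knockout and 5218 wild-type fragments and a ratio of 2.03 (1.96 to 2.10). CCND1, which encodes cyclin D1, had a ratio of 0.811 and TGFA, a ligand of the EGF receptor, one of 0.969. Of the 8 genes, 6 had a log2 ratio below 0, beside 48.7% of all tested genes. This count depends on the scaling. The log2 ratio of TGFA was -0.05, and total count scaling moved the median of all genes up by 0.08. No test of these lists was made, and the medians of the lists of VHL ligase partners, metabolite enzymes, coactivators and HIF1A-type targets changed sign with the scaling.

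**Figure D4:**
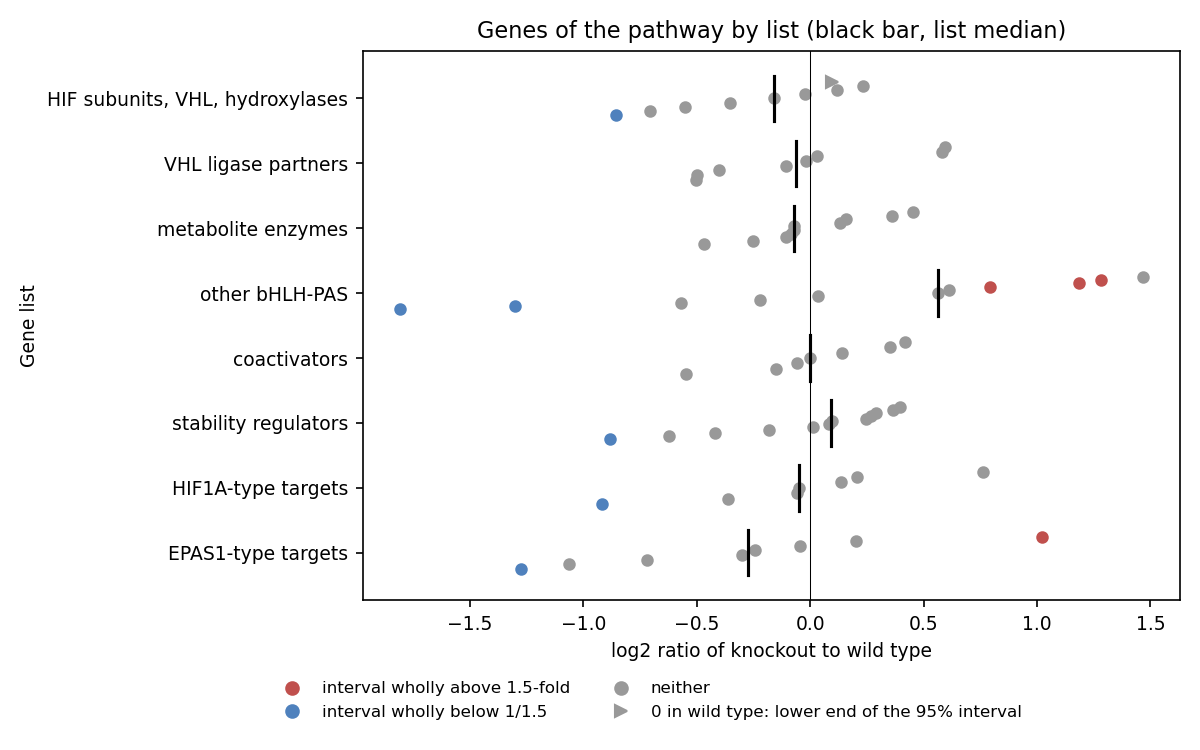
Log2 ratio of knockout to wild type (horizontal axis) of the tested genes of 8 lists, with 1 library per line. Black bars are list medians, red and blue mark genes called higher and lower, and the triangle is HIF3A at the lower end of its 95% counting interval, a ratio of 1.07, because it had no wild-type fragment. Of the HIF subunits, VHL and hydroxylases only EPAS1 is coloured, while the other bHLH-PAS proteins hold 3 red and 2 blue points.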

How the data were processed

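RNA was sequenced from 2 libraries, 1 per line, grouped by their labels. The submitters' processing notes name the hg19 build and the tools TopHat2 (2.0.6), Bowtie and HTSeq, with settings, annotation and use of strand not given in the sources used here. For each library, the authors deposited raw counts and RPKM values by gene, per the file headers. Every count was even, so counts were divided by 2 to give fragments. The authors' RPKM used 1 library total per table, of which gene counts made up 72.8% (knockout) and 72.7% (wild type). Of 23398 rows, 23 Y copies of X genes were dropped.

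Libraries were scaled by TMM in edgeR 4.0.16 (R 4.3.3) on genes with at least 10 reads over both. Ratios have exact conditional (Clopper-Pearson) 95% intervals, and log2 ratios used 0.5 added fragments. Quotients of 2 genes have normal-approximation intervals of the log odds ratio. Alternatives were total count, upper quartile and DESeq2 1.42.0 scaling, minimums of 1 and 50 reads, undivided reads, a 99% interval, no interval, a 2-fold rule, neighbour-relative ratios and the deposited RPKM.

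The members and lists were chosen with earlier results of these data known. Named genes were the members, SETD2, overlapping rows, and the called genes of each pathway list or its 2 with the most fragments. CUL2, CA9, CCND1, TGFA, PAX8, PAX2, KRT8, CDH6, COL1A2, NEDD8, ARNTL and MIA-RAB4B were added after their values were seen. Likeness between gene patterns was not computed, because 2 libraries give each gene 1 ratio. Of 7 overlap symbols, 4 were found. Protein motifs were planned but not analysed here.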

Additional observations from a re-analysis of the deposited data

How the results depend on the processing

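EPAS1 was the called lower member under total count, upper quartile and DESeq2 scaling, both read minimums and the 99% interval, with 0 called higher. With undivided reads, or the fold without an interval, 2 members were lower (EPAS1 and HIF1A) and 1 higher (HIF3A). Undivided reads narrow every interval by construction. Relative to the 50 nearest genes 2 were lower, EPAS1 and HIF1A, and with the 2-fold rule 0. Over all genes, the fold without an interval gave 3538 higher and 2830 lower, and the 2-fold rule 971 and 569. EPAS1 ratios ranged from 0.549 to 0.584, HIF1A from 0.569 to 0.647, ARNT from 0.677 to 0.817, EGLN1 from 0.798 to 0.947, EGLN2 from 0.995 to 1.24, EGLN3 from 0.763 to 0.826 and VHL from 1.08 to 1.15. The lower bound of HIF3A ranged from 0.852 to 2.61. The members' mean log2 ratio was 0.15 against a median of -0.16, because the mean takes the fitted value of HIF3A. With HIF3A at the lower end of its interval the median stayed at -0.16. Medians of the VHL ligase, metabolite enzyme and HIF1A-type target lists were 0.01, 0.0059 and 0.03 with total count scaling, that of the coactivators was -0.0102 with DESeq2 scaling, and the mean of the stability list was -0.03. Total count scaling moved the median of all genes by 0.08 on the log2 scale. No paired analysis was possible because each line has 1 library, and no replicate could be left out. Depth limits HIF3A and EGLN2 most.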
